A study of Octopus bimaculoides with 16 samples.

Results

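Dissociated cells of octopus sucker rims were compared with the olfactory organ of the same species, Octopus bimaculoides, to set a surface that tastes by touch beside one that samples the water. The comparison rests on 1 messenger RNA library of each, rim cells and olfactory organ, each sequenced on 2 lanes that the deposited table gives as 1 column. Of 15842 genes in the table, 9098 had at least 10 CPM (reads scaled to a library total of 1000000) in either library. A gene was called when it reached that level in either library and CPM + 1 differed by at least 4-fold. By this rule 446 genes were higher in rim cells, 4.90% of the 9098, and 396 were lower, 4.35%. A further 7204 genes, 79.2% of the 9098, had at least 10 CPM in both and lay under 4-fold apart, and are called shared here. The remaining 1052 reached 10 CPM in 1 library only and lay under 4-fold apart. Below that level, 5305 genes had reads in rim cells or olfactory organ, and 1439 had none in either.

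The rim cell library carries 8 suckers in its title and no arm. The other libraries, used as context, were whole sucker cup from arm R1 (2 libraries, labelled automated and manual), mantle skin, eye, optic lobe (a part of the brain) and statocyst (the balance organ). No age, sex, treatment or animal is named for any of them, so neither which animals gave the tissues nor how many is known here. Rim cells were the only dissociated sample. Dissociation, animal and tissue therefore cannot be told apart in this comparison.

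Octopus arms carry suckers whose rims hold sensory cells for touch and taste, and the animal explores surfaces with them by contact chemosensation. In octopus, chemotactile receptors, a family related to nicotinic acetylcholine receptors, detect poorly soluble molecules at the sucker surface. The olfactory organ of cephalopods is a paired sensory epithelium on the head that responds to dissolved odorants. Both hold ciliated sensory cells and nerve fibres, and both lie at the body surface beside skin. The deposited genes carry LOC identifiers that neither the table nor the reference annotation pairs with a functional name, so receptor genes could not be picked out and the tissue labels could not be checked against marker genes. The genes below are given by identifier and level. The 2 identifiers with a synonym in the reference, LOC106873941 (OTX) and LOC106871116 (hedgehog), were under 10 CPM in both libraries. OTX, a homeobox gene of head development, had 1.44 CPM in rim cells and 3.08 CPM in olfactory organ. The hedgehog gene, which encodes a secreted signal, had 4 reads in rim cells and none in olfactory organ.

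The rim cell library held 36916825 reads and the olfactory organ library 14264654. The other 6 ranged from 4782744 in mantle skin to 15167497 in statocyst. A gene without a read could still lie at up to 0.0999 CPM in rim cells and 0.259 CPM in olfactory organ by the exact 95% Poisson limit. All intervals here cover counting error only. With 1 library for each tissue of the pair, no test between them was possible and no p-value is given. In bulk RNA, fewer cells of a type and less RNA per cell cannot be told apart.

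Across the 9098 genes the log2(CPM + 1) levels of rim cells and olfactory organ correlated at Pearson's r = 0.696 and Spearman's rho = 0.758, over genes that share both libraries and are not replicates. Most of these genes were close in level, with a median absolute log2 ratio of 0.61. The median signed log2 ratio was -0.16, so the typical gene lay slightly lower in rim cells on the CPM scale. The plot of one library against the other shows the called genes on both sides of a dense band of shared genes.

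**Figure D1:**
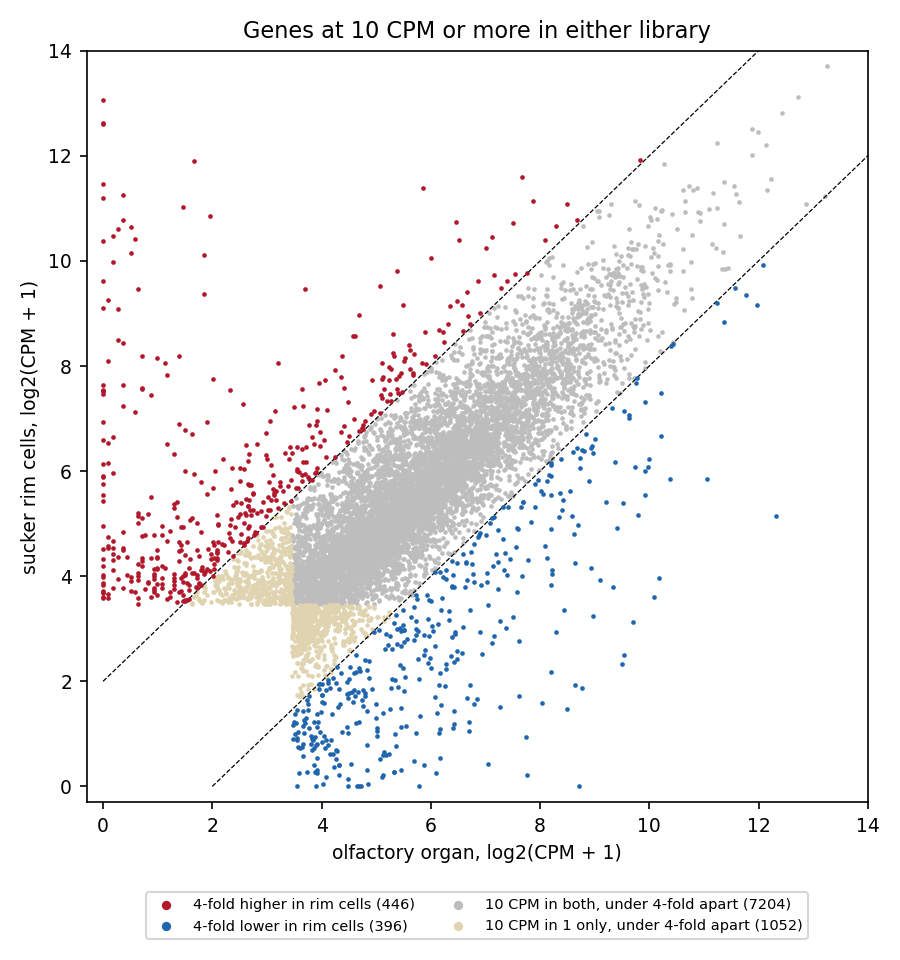
Each point is 1 of the 9098 genes that reached 10 CPM in rim cells or olfactory organ, with log2(CPM + 1) of olfactory organ on the horizontal axis and of sucker rim cells on the vertical axis. Dashed lines mark a 4-fold difference. The 446 genes higher in rim cells include a column at the left edge with no or almost no reads in olfactory organ. No olfactory read was found for 34 of the 446, and no rim cell read for 8 of the 396 lower genes. Olfactory organ had fewer reads, 14264654 against 36916825 in rim cells, so these counts are not like measures.

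The 446 genes higher in rim cells took 12.3% of the reads of rim cells (95% Wilson interval 12.31 to 12.33%) and 0.887% of those of olfactory organ (0.882 to 0.892%). Their median log2 ratio was 2.87, with quartiles of 2.38 and 3.91. More than 16-fold was reached by 103 of them and more than 64-fold by 49. Levels in rim cells reached 100 CPM for 157 and 1000 CPM for 32, while 110 were under 20 CPM. In olfactory organ 120 lay under 1 CPM and 34 had no read, and 127 still had at least 10 CPM. The 10 genes with the most rim cell reads accounted for 34.2% of the reads of the whole set. The sizes and shares follow from the rule and are given as a description.

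Genes with the highest ratios were near absent from olfactory organ. LOC106869022 had 8569 CPM in rim cells and no read in olfactory organ. Its rim to olfactory ratio was 40745 at a floor of 3 olfactory reads, with an exact 95% lower limit of 33136. In the whole sucker cup it had 13722 CPM (automated) and 13687 CPM (manual), and skin, eye, optic lobe and statocyst had 0.84, 0, 0.56 and 0 CPM. It was thus a gene of both sucker preparations and of no other library at more than 1 CPM. LOC106869027 had 6316 CPM in rim cells and no read in olfactory organ, and 10661 and 10115 CPM in the whole cups. Its rim to olfactory ratio was 30031 at the same floor (exact lower limit 24423). LOC106873015 had 6212 CPM in rim cells against no read in olfactory organ, with 4238 and 4150 CPM in the whole cups, and a single read, in statocyst, among the remaining 4 libraries. It was higher in rim cells than in either whole cup, the reverse of the first 2 genes.

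LOC106880275, LOC106882063 and LOC106876448 had 2824, 2343 and 1337 CPM in rim cells and no read in olfactory organ. Their whole cup values were close to their rim cell values, at 3024 and 2989 CPM, 2577 and 2457 CPM, and 1497 and 1559 CPM. A pair of genes of the same group differed widely between the sucker preparations. LOC106882097 had 2448 CPM in rim cells and 4 reads (0.280 CPM) in olfactory organ, a rim to olfactory ratio of 8729 (3409 to 32037). The whole cups had less of it, 379 and 310 CPM, and skin, eye, optic lobe and statocyst had no read. LOC106882233 had 1764 CPM in rim cells and also 4 reads in olfactory organ, a ratio of 6291 (2457 to 23088). The whole cups had far more of it, 33187 and 32374 CPM.

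A high level in rim cells did not require absence from olfactory organ. LOC106881827 had 3860 CPM in rim cells and 911 CPM in olfactory organ, a rim to olfactory ratio of 4.24 (4.16 to 4.32), and mantle skin (3352 CPM) and the whole cups (2891 and 3337 CPM) were close to rim cells. LOC106879367 had 3822 CPM in rim cells and 31 reads (2.17 CPM) in olfactory organ, a rim to olfactory ratio of 1759 (1239 to 2588). It was also high in the whole cups (4744 and 4478 CPM) and in mantle skin (1284 CPM), and had at most 0.33 CPM in eye, optic lobe and statocyst.

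The 396 genes lower in rim cells took 1.08% of the reads of rim cells (1.081 to 1.088%) and 8.92% of those of olfactory organ (8.91 to 8.94%). Their median log2 ratio was -3.00, with quartiles of -3.91 and -2.45. More than 16-fold was reached by 93 and more than 64-fold by 15, against 103 and 49 among the genes higher in rim cells. In rim cells 73 lay under 1 CPM and 8 had no read, while 133 had at least 10 CPM. In olfactory organ 145 had at least 100 CPM and 17 at least 1000 CPM.

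LOC106884259 had no read in rim cells and 418 CPM in olfactory organ. Its olfactory to rim ratio was 5146 at a floor of 3 rim reads, with an exact lower limit of 4184. The next highest library was optic lobe with 4.09 CPM, and both whole cups were under 1 CPM. LOC106882947 had 6 reads (0.163 CPM) in rim cells and 215 CPM in olfactory organ, an olfactory to rim ratio of 1324 (607 to 3610), with at most 5.06 CPM elsewhere. LOC106875191 had 2.65 CPM in rim cells and 437 CPM in olfactory organ, an olfactory to rim ratio of 165 (135 to 203), and rim cells were its next highest library. These 3 genes were high in olfactory organ alone among the 8 libraries. LOC106875508 had 4.01 CPM in rim cells and 722 CPM in olfactory organ, and eye had 15.5 CPM.

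Other genes of the lower set were also present at the skin surface or in the eye. LOC106870155, which had the most olfactory reads of the set, had 34.5 CPM in rim cells and 5140 CPM in olfactory organ, an olfactory to rim ratio of 149 (141 to 158). Its whole cup values were 642 and 609 CPM, more than 10 times the rim cell level, with 236 CPM in skin and 495 CPM in eye. LOC106880586 had 4.66 CPM in rim cells and 746 CPM in olfactory organ, with 222 CPM in skin and 55.1 and 57.4 CPM in the whole cups. LOC106870822 had 0.921 CPM in rim cells and 214 CPM in olfactory organ, and 13.0 to 15.5 CPM in the whole cups and skin. The brain and eye appeared for LOC106879267, with 1.76 CPM in rim cells and 358 CPM in olfactory organ beside 60.5 CPM in eye, 35.9 CPM in optic lobe and 34.5 CPM in skin.

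The other 4 genes named for their olfactory level had 568 CPM or more in rim cells. LOC106882236 had 568 CPM in rim cells and 4032 CPM in olfactory organ, an olfactory to rim ratio of 7.10 (6.99 to 7.21), with 1041 and 999 CPM in the whole cups and at most 26.8 CPM elsewhere. LOC106869698 had 974 CPM in rim cells and 4319 CPM in olfactory organ, and reached 973 and 978 CPM in the whole cups and 674 CPM in skin. LOC106883127 and LOC106875022 had 653 and 713 CPM in rim cells and 3512 and 3033 CPM in olfactory organ. All 4 had at most 76.9 CPM in optic lobe and statocyst, and at least 769 CPM in both whole cups.

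**Figure D2:**
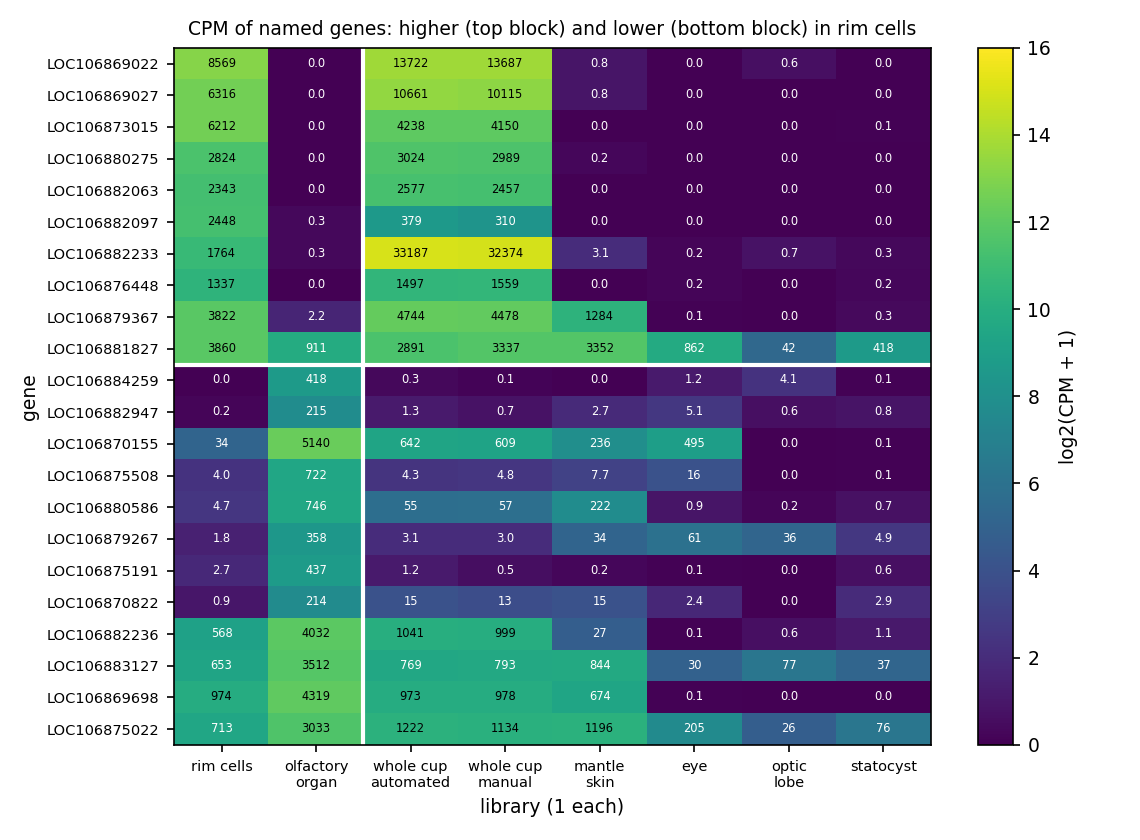
Cell color gives log2(CPM + 1) and the printed number the CPM of each named gene in 8 libraries, with rim cells and olfactory organ left of the white line. The top block holds the 10 genes higher in rim cells and the bottom block the 12 genes lower in rim cells. In the top block 8 of the 10 genes had under 1 CPM in olfactory organ, and all 10 had at least 300 CPM in both whole cups.

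The whole sucker cup was a second sample of the sucker and was set against the same olfactory organ library. Both cup libraries were at least 4-fold above olfactory organ for 197 of the 446 higher genes, 44.2%, where 2.75% of the 9098 genes were so. For 88 genes both cups lay under 2-fold above olfactory organ or below it, and for 161 the cups fell between these cases. The 88 and the 161 were not counted over all 9098 genes, so nothing is read from them. Of the 396 lower genes, 223 (56.3%) were at least 4-fold lower in both cups than in olfactory organ, against 3.45% of the 9098. Both comparisons share the olfactory library, so an aberrant value there would move rim cells and cups together.

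Some called genes differed between rim cells and whole cup as well. Rim cells lay at least 4-fold above both cups for 44 of the 446 higher genes and at least 4-fold below both for 20, against 0.824% and 1.67% of the 9098. The rule used the same rim cell library, so nothing is read from these shares. LOC106868721 had 551 CPM in rim cells and no read in olfactory organ, with 30.8 and 35.2 CPM in the cups. Its rim to olfactory ratio was 2621 at a floor of 3 olfactory reads (exact lower limit 2131). LOC106869364 had 1396 CPM in rim cells and 138 CPM in olfactory organ, a rim to olfactory ratio of 10.1 (9.66 to 10.6). The cups held less of it than olfactory organ, at 101 and 116 CPM, while statocyst had 1287 CPM and eye 860 CPM. LOC106879789 had 121 CPM in rim cells and 2.73 CPM in olfactory organ, a rim to olfactory ratio of 44.2 (32.3 to 62.2), and 4.40 and 9.16 CPM in the cups.

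Among the 396 lower genes, rim cells lay at least 4-fold below both cups for 89 and above both for 3, against the same 1.67% and 0.824% of the 9098. For 35 of the lower genes both cups were at or above olfactory organ. This was not counted over all 9098 genes, so nothing is read from the number. LOC106872275 had no read in rim cells and 53.8 CPM in olfactory organ, yet 414 and 407 CPM in the cups and 759 CPM in skin. Its olfactory to rim ratio was 662 at a floor of 3 rim reads (exact lower limit 537). LOC106868385 had no read in rim cells and 25.5 CPM in olfactory organ, with 39.5 and 42.3 CPM in the cups and 53.9 CPM in skin. LOC106883724 had 2.82 CPM in rim cells and 70.2 CPM in olfactory organ, with 681 and 667 CPM in the cups and 2.72 CPM in skin. In these named genes the rim cell library stood apart from the other sucker samples as well as from olfactory organ.

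**Figure D3:**
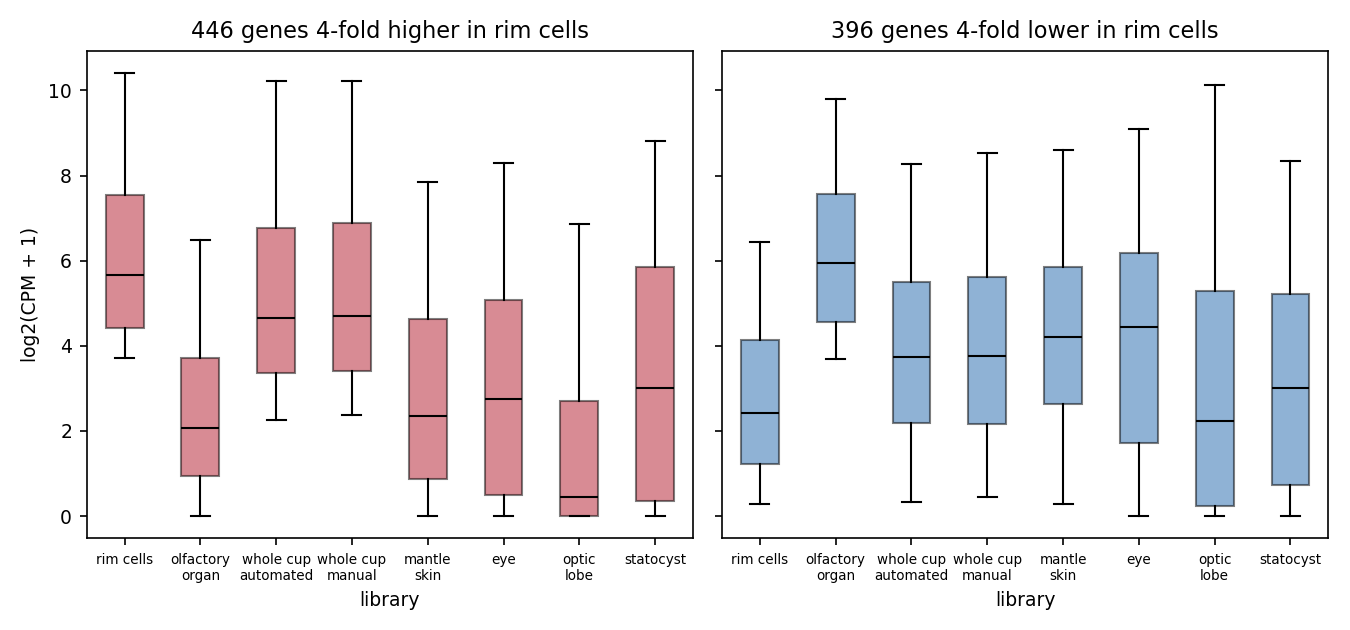
Boxes give the quartiles and median of log2(CPM + 1) over the called genes in each of 8 libraries, and whiskers the 5th and 95th percentiles; the left panel holds the 446 genes higher in rim cells and the right panel the 396 lower ones. Medians for the higher genes were 49.96 CPM in rim cells, 3.22 CPM in olfactory organ and 24.2 and 24.9 CPM in the cups, and for the lower genes 4.35, 61.1, 12.4 and 12.6 CPM.

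A smaller share of the called genes than of all genes reached 10 CPM in skin, eye, optic lobe and statocyst. Skin had at least 10 CPM for 39.7% of the higher genes and 62.1% of the lower genes, against 83.9% of the 9098. Eye had at least 10 CPM for 41.5% and 60.4%, against 80.2%. Optic lobe had at least 10 CPM for 20.2% and 41.2%, against 64.9%, and statocyst for 47.5% and 46.7%, against 78.6%. Of the 9098 genes, 79.2% are shared genes, which by rule reach 10 CPM in both rim cells and olfactory organ. Called genes are not so chosen, so nothing is read from their lower shares here or in the sorting that follows.

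The called genes were then sorted by where else they reached 10 CPM. Neither mantle skin nor eye, optic lobe or statocyst did so for 166 of the 446 higher genes, 37.2%, for 66 of the 396 lower genes, 16.7%, and for 5.53% of the 9098. Of these, 75 higher and 16 lower genes were under 1 CPM in all 4 tissues. For the 166 genes the median log2 ratio was 3.71, and 5.18% of the rim cell reads fell on them. Both cups were at least 4-fold above olfactory organ for 113 of the 166. For 55 of the 66 lower genes both cups were at least 4-fold below it. The cup counts within this class were not made over all 503 of its genes among the 9098. The rule also used the olfactory level, so nothing is read from any count within this class.

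Skin alone of these tissues reached 10 CPM for 41 higher genes (9.19%) and 63 lower genes (15.9%), against 6.34% of the 9098. LOC106879350, of the higher set, had 1852 CPM in rim cells and 2.87 CPM in olfactory organ, with 1308 and 1264 CPM in the cups and 76.3 CPM in skin. The 63 lower genes took 2.46% of the olfactory reads. Eye, optic lobe or statocyst without skin held 103 higher genes (23.1%) and 84 lower genes (21.2%), against 10.6% of the 9098. Among these 103, statocyst reached 10 CPM for 86, eye for 66 and optic lobe for 18. Among the 84 the counts were 50 for statocyst, 68 for eye and 43 for optic lobe. Over all 9098 genes, statocyst reached 10 CPM for 78.6%, eye for 80.2% and optic lobe for 64.9%. The counts were not made over all 962 genes of this class, so nothing is read from their order. LOC106873817 had 789 CPM in rim cells and no read in olfactory organ, with 11.4 CPM in eye and 4196 and 4218 CPM in the cups. Its rim to olfactory ratio was 3750 at a floor of 3 olfactory reads (exact lower limit 3050). LOC106875999, of the lower set, had 3.55 CPM in rim cells and 293 CPM in olfactory organ, with 12.8 CPM in statocyst and 8.74 CPM in eye.

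Skin together with eye, optic lobe or statocyst held 136 higher genes (30.5%) and 183 lower genes (46.2%), against 77.6% of the 9098. LOC106881862 had 2093 CPM in rim cells and 1.75 CPM in olfactory organ, a rim to olfactory ratio of 1194 (809 to 1846), with 21548 and 20622 CPM in the cups and 10.2 CPM in skin and 10.02 CPM in statocyst. LOC106875676, of the lower set, had 2.30 CPM in rim cells and 196 CPM in olfactory organ, but 29735 CPM in optic lobe and 5564 CPM in eye. Statocyst had 430 CPM of LOC106875676, skin 186 CPM and the cups 23.2 and 24.2 CPM. This gene alone took 2.97% of the optic lobe reads, of the 12.4% that the 396 lower genes took there.

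**Figure D4:**
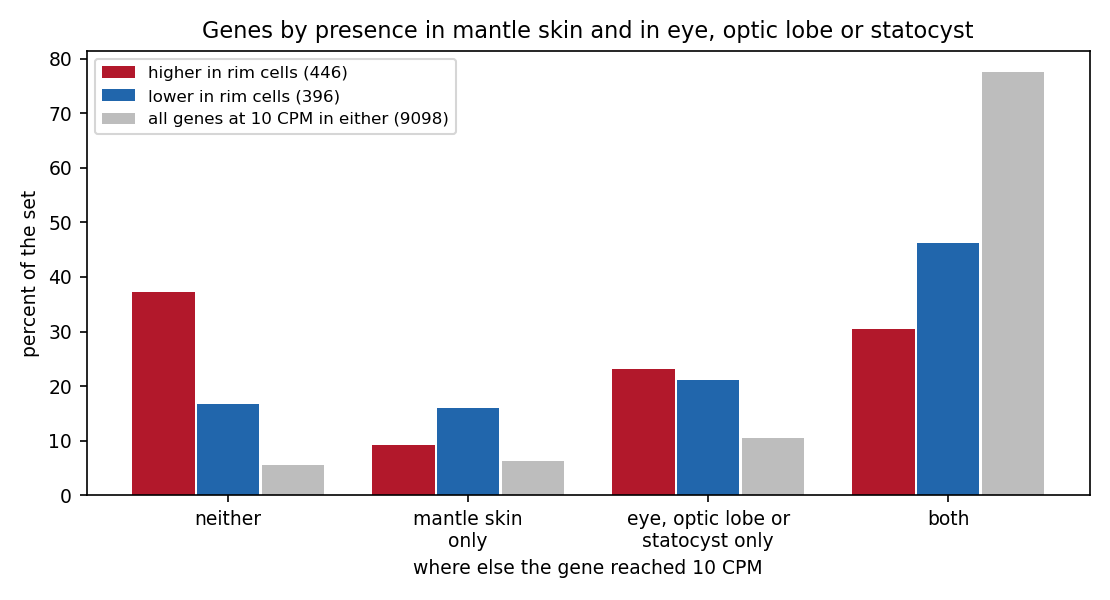
Bars give the percent of each gene set that reached 10 CPM in neither mantle skin nor eye, optic lobe or statocyst, in skin only, in eye, optic lobe or statocyst only, or in both, for 446 higher, 396 lower and all 9098 genes. The higher set had 37.2% in the first class and 30.5% in the last, the lower set 16.7% and 46.2%, and all genes 5.53% and 77.6%.

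Where at least 1 CPM was present in any of the 4 tissues outside the sucker and olfactory organ, statocyst was the highest of them for 154 of 371 higher genes (41.5%) and skin for 108 (29.1%). For 380 lower genes the order was turned, with skin highest for 153 (40.3%) and statocyst for 64 (16.8%). Over all 8999 such genes statocyst was highest for 39.8% and skin for 30.7%. Eye was highest for 21.3% of both called sets, against 10.5%. A gene standing at least 4-fold above all 6 libraries outside the pair was found for 25 of the higher genes (5.61%) and 92 of the lower genes (23.2%). Of the 9098 genes, 0.363% stood so in rim cells and 1.25% in olfactory organ, and the rule used these levels. The cups, which contain the rim, are among these 6, so the 2 counts are not like measures.

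Of the 7204 shared genes, 4735 (65.7%) reached at least 10 CPM in all 8 libraries. The rule already set that level in rim cells and olfactory organ, and the count was not made over all 9098 genes. Nothing is therefore read from this share. Between rim cells and olfactory organ, 5851 genes lay within 2-fold. The shared genes took 84.1% of the reads of rim cells and 87.7% of those of olfactory organ. LOC106873795 had 13440 CPM in rim cells and 9783 CPM in olfactory organ, a rim to olfactory ratio of 1.37 (1.366 to 1.382). It was higher still in the cups (22601 and 20696 CPM) and skin (38543 CPM), and had 67.4 CPM in eye and under 1 CPM in optic lobe and statocyst. LOC106877512 had 4703 CPM in rim cells and 4492 CPM in olfactory organ, and a like pattern, with 3178 CPM in skin, 23.6 CPM in eye and at most 3.23 CPM in optic lobe and statocyst. LOC106878290, LOC106880732 and LOC106870735 were instead present in every library, at 8876, 7197 and 5622 CPM in rim cells and 6774, 5498 and 4084 CPM in olfactory organ, and at least 1579 CPM elsewhere.

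Only 19 shared genes, 0.264% of the 7204, were at least 4-fold above mantle skin, eye, optic lobe and statocyst in both rim cells and olfactory organ. When the exact lower bound of each ratio had to reach 4-fold, 12 of them passed, and 7 did with a pseudocount of 5 CPM. Rim cells had the higher level of the pair for 7 and the lower for 12, and 10 lay within 2-fold. Skin was the highest of the 4 other tissues for 9, statocyst for 5, eye for 3 and optic lobe for 2. Of the 7203 shared genes with at least 1 CPM in any of the 4, skin was highest for 32.1% and statocyst for 39.5%. Eye was highest for 9.09% of them and optic lobe for 19.3%. With only 19 genes, nothing is read from their order.

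LOC106883590 stood farthest from the other tissues, with 34.1 CPM in rim cells and 123 CPM in olfactory organ and at most 0.0817 CPM in skin, eye, optic lobe and statocyst. The cups had 3.13 and 4.34 CPM. LOC106877708 had 479.8 CPM in rim cells and 239 CPM in olfactory organ, with 184 and 202 CPM in the cups and 22.2 CPM in skin. LOC106869474 had 182 CPM in rim cells and 676 CPM in olfactory organ but more, 834 and 841 CPM, in the cups. These 3 genes thus differed in whether the whole cup carried them.

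LOC106875897 had 84.2 CPM in rim cells and 41.6 CPM in olfactory organ, close to the cups at 92.8 and 94.0 CPM, and no read in skin. LOC106868984 was level in the pair, at 41.6 CPM in rim cells and 42.7 CPM in olfactory organ (ratio 0.974, 0.886 to 1.07), with 12.9 and 11.2 CPM in the cups. LOC106883674 had 18.2 CPM in rim cells and 47.8 CPM in olfactory organ and at most 2.09 CPM anywhere else, the cups included. Of the 8 named by the rule, LOC106876822 and LOC106880237 were of the same low level, at 22.1 and 16.7 CPM in rim cells and 34.0 and 40.03 CPM in olfactory organ. With the cups added to the tissues to exceed, 3 of the 19 genes passed.

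Within the 19, 4 genes were over 2-fold apart between the cups. LOC106868425 had 208 CPM in rim cells and 216 CPM in olfactory organ, 88.9 CPM in the automated cup and 362 CPM in the manual cup. LOC106872464 had 271 CPM in rim cells and 332 CPM in olfactory organ, with 160 and 534 CPM in the cups. LOC106875818 had 389 and 693 CPM in rim cells and olfactory organ, with 196 and 688 CPM in the cups. LOC106869095 had 56.8 and 51.2 CPM, with 25.4 and 109 CPM. In each of them the manual cup stood 3.34 to 4.28 times above the automated cup. Skin, eye and statocyst lay below both cups and above optic lobe, which was lowest at 0.19 to 3.72 CPM. Statocyst was the highest of these tissues for LOC106868425, LOC106872464 and LOC106869095, and skin for LOC106875818. The place of rim cells and olfactory organ above these tissues follows from the rule for the 19 and is no finding. Only 7 of 7662 genes with at least 10 CPM in both cups differed by 2-fold or more between them, and these 4 are among the 7. No 2 of the 4 are neighbours in the reference gene order. They were singled out after their values were seen.

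**Figure D5:**
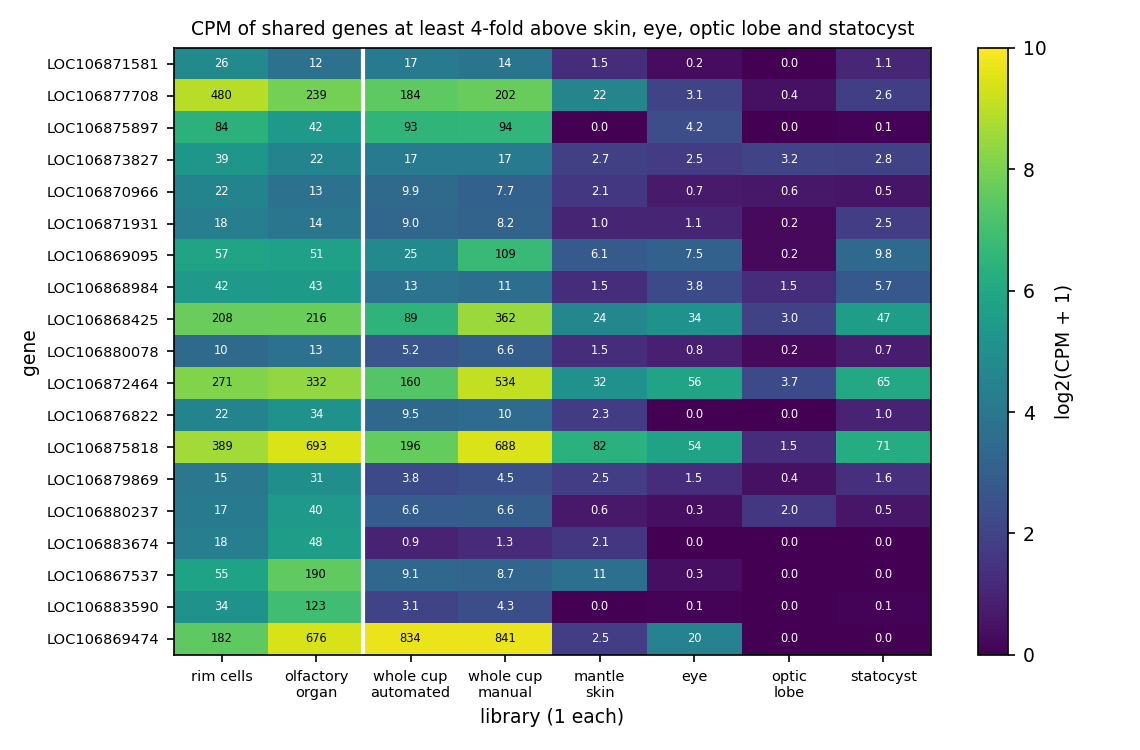
Cell color gives log2(CPM + 1) and the printed number the CPM in 8 libraries for the 19 genes shared by rim cells and olfactory organ (left of the white line) and at least 4-fold above mantle skin, eye, optic lobe and statocyst, ordered by their ratio of rim cells to olfactory organ. LOC106868425, LOC106869095, LOC106872464 and LOC106875818 are 3.34 to 4.28 times higher in the manual than in the automated cup, and the other 15 genes differ less between the cups.

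Some called genes stood beside each other in the order of the reference assembly. Of 367 higher genes placed on its chromosomes, 73 (19.9%) had a measured neighbour that was also higher, against 4.92% of the 8357 placed genes of the 9098. Of 359 lower genes, 83 (23.1%) had a neighbour that was also lower, against 5.22%. The higher genes formed 32 runs and the lower genes 35, the longest of 5 genes in either direction. Neighbouring genes can be copies of each other or pieces of 1 gene model, and reads shared between such genes would make their values move together; whether they did was not tested.

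The longest higher run joined LOC106869022 and LOC106869027 to LOC106869021, LOC106873034 and LOC106873033. These last 3 had 293, 13.2 and 183 CPM in rim cells and 1.61, 0 and 0 CPM in olfactory organ. The cups had 8825 and 8252 CPM of LOC106869021 and 3458 and 3332 CPM of LOC106873033, far above rim cells, so the run was not uniform between the sucker preparations. A run of 3, LOC106877137, LOC106868777 and LOC106868776, had 660, 1112 and 710 CPM in rim cells and 2.59, 2.59 and 0.561 CPM in olfactory organ, and was close in the cups (655 to 887 CPM over the 3 genes). A run of 4 was of another kind. LOC106881815, LOC106881810, LOC106881809 and LOC106881816 had 47.0, 177, 54.9 and 13.2 CPM in rim cells and 7.78, 37.4, 11.4 and 2.45 CPM in olfactory organ, and the first 3 had 19.4 to 181 CPM in eye, optic lobe and statocyst.

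Among the lower genes, the neighbours LOC106877401, LOC106877400, LOC106877398 and LOC106871150 showed 1 pattern. They had 18.9, 3.14, 66.4 and 26.8 CPM in rim cells and 218, 38.1, 1004 and 393 CPM in olfactory organ. The cups lay between, at 11.7 to 231 CPM, and skin, eye, optic lobe and statocyst were at most 8.99 CPM. Their rim to olfactory log2 ratios ran from -3.90 to -3.24. The 5 neighbours LOC106868136, LOC106868133, LOC106868131, LOC106868135 and LOC106868130 differed more from each other. All had 0.623 to 4.66 CPM in rim cells and 13.2 to 57.8 CPM in olfactory organ, but LOC106868135 was highest in optic lobe (146 CPM) and LOC106868130 in statocyst (335 CPM). A second run of 5 joined LOC106879657, LOC106879655, LOC106883121, LOC106883122 and LOC106883123, at 13.5 to 152 CPM in olfactory organ. LOC106879655 and LOC106883121 were highest in skin (117 and 41.0 CPM), with 105 and 34.4 CPM in olfactory organ. LOC106883123 was highest in statocyst (202 CPM), and LOC106879657 and LOC106883122 in olfactory organ (18.9 and 152 CPM). Another run of 4 held unlike genes. LOC106875676 was highest in optic lobe (29735 CPM) and LOC106883724 in the cups (681 and 667 CPM). LOC106883213 and LOC106876986 were highest in olfactory organ (2118 and 162 CPM).

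Identifiers could be matched to the reference for 395 of the 446 higher genes and 366 of the 396 lower genes, and nearly all matched genes were annotated as protein coding (392 and 361). The gene span, introns included, had a median of 39.9 kb for higher genes (quartiles 14.8 and 108 kb) and 30.5 kb for lower genes (12.9 and 65.1 kb), against 32.6 kb for all matched genes of the 9098 (14.7 and 72.03 kb).

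At the 4-fold threshold, the genes nearest inside and outside differed little. On the higher side, LOC106868557, LOC106871651 and LOC106869467 were just inside, with log2 ratios of 2.003 to 2.004, and LOC106869096, LOC106880726 and LOC106880047 just outside with 1.991 to 1.992. On the lower side, LOC106872253, LOC106881921 and LOC106873774 were just inside, at -2.003 to -2.001, and LOC106868175 and LOC106881840 just outside, at -1.996. LOC106873007 lay outside at -1.9996. LOC106868557 had 15.1 CPM in rim cells and 3.01 CPM in olfactory organ, and LOC106869096, on the other side of the threshold, 33.9 and 7.78 CPM.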

How the data were processed

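Bulk messenger RNA of hand-dissected tissues was extracted with phenol and chloroform and made into libraries with the Kapa mRNA HyperPlus kit, per the labels' protocols. Trim Galore and kallisto are named in the submitters' processing notes; no source used here gives versions, genome build or annotation. The deposited values are on a log2 scale, read from the values as log2(CPM + 1): after inversion every column summed to 1000000, and all values were whole multiples of 1 read within 0.01 reads. Since kallisto reports estimates that can be fractional, the whole values may come from rounding before deposit or from another, unnamed step, and every limit given here takes them for reads. The 16 samples are 8 libraries on 2 lanes each, and the deposited table already has them merged, by a method not given.

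Reads and CPM were recovered in Python 3.11.15 (pandas 2.3.3, SciPy 1.17.1). Calls used a pseudocount of 1 CPM, 10 CPM in either library and 4-fold, which understates changes of low genes. No test was made, as each tissue of the pair has 1 library. Levels have exact 95% Poisson limits, read shares Wilson intervals and ratios, without pseudocount, exact Clopper-Pearson intervals. Where a library had 0 reads, the ratio was taken at 3 reads. The exact lower limit beside it, which is smaller, is the bound. Named genes are, per direction, the 8 with the largest log2 ratio and the 5 with the highest level, the 5 shared genes of highest level and the 8 shared genes farthest above the other tissues, those nearest the threshold, and genes in the longest runs; the first genes of the groups by tissue and by cup, and LOC106875676, were chosen after values were seen. Members and lists were chosen with earlier results of these data known. Of the 15842 identifiers, 14305 were found in the reference of assembly ASM119413v2, used for names and gene order only (13929 placed genes). Planned lists by protein sequence were not made, since no protein sequences were used here. Calls and intervals were tested on simulated counts with counting error only, which hold no variation between animals or preparations.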

Additional observations from a re-analysis of the deposited data

How the results depend on the processing

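Alternatives were run for the counts of higher, lower and shared genes and for the 19 shared genes above the other tissues. A pseudocount of 0.1 CPM, median-of-ratios size factors and thinning to 14264654 reads moved none of the 4 counts by more than 1.5 times. With 5 CPM as the pseudocount, which by construction lowers ratios of low genes, there were 274 higher genes and 7 of the 19. A minimum of 50 CPM, which admits fewer genes, gave 223 higher, 218 lower, 2897 shared and 7 of the 19, and no minimum gave 12644 shared genes. Requiring the counting bound to reach 4-fold left 12 of the 19. Size factors shifted rim cells against olfactory organ by 0.13 on the log2 scale, so that 497 genes were higher and 343 lower. Leaving out 1 whole cup library gave 203 to 211 higher genes and 231 to 234 lower genes that the cup shared. Leaving out either cup, chosen after seeing the data, gave 26 to 27 higher and 93 lower genes above all other libraries, and 3 shared ones. No paired analysis was possible because each tissue of the pair has 1 library. The lists by protein sequence, and their alternative, were not run. Depth limits the lowest levels: a single read was 0.0271 CPM in rim cells and 0.0701 CPM in olfactory organ, and 0.209 CPM in skin.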

Other observations

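Of the 7 genes that differed by 2-fold or more between the automated and manual cups, 3 lay outside the 19 shared genes above the other tissues. LOC106874389 had 392 CPM in rim cells and 38.4 CPM in olfactory organ, and was called higher; its cup values were 31.02 CPM (automated) and 94.4 CPM (manual). LOC106868678 had 33.3 CPM in rim cells and 43.4 CPM in olfactory organ, and the cups 18.8 CPM (automated) and 38.5 CPM (manual). LOC106868706 went the other way between the cups, at 29.3 CPM (automated) and 10.9 CPM (manual), beside 28.2 CPM in rim cells, 24.3 CPM in olfactory organ, 175 CPM in eye and 114 CPM in statocyst. No source used here explains those 2 words, and the difference was not tested.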
